A study of Mus musculus with 50 samples.

Results

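Voltage-gated sodium channels carry the inward current that starts and propagates action potentials. The genes described here encode 7 subunits of these channels, 4 pore-forming alpha subunits (Scn1a, Scn2a, Scn3a and Scn8a) and 3 auxiliary beta subunits (Scn2b, Scn3b and Scn4b). They were chosen by name as subunit genes, not by their levels, and are 7 of 21897 protein-coding genes in the data. All 7 passed the filter on low counts, which 16330 protein-coding genes passed.

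An alpha subunit alone forms the pore, the voltage sensors and the inactivation gate, and beta subunits are single-pass membrane proteins that adjust gating and link the channel to adhesion molecules. In the brain, alpha subunits are held at high density in the axon initial segment and at nodes of Ranvier by ankyrin G. The Scn3a product, Nav1.3, is known mainly from the immature brain, Nav1.2 from Scn2a occupies immature initial segments and unmyelinated axons, Nav1.6 from Scn8a takes over at mature initial segments and nodes, and Nav1.1 from Scn1a is prominent in inhibitory interneurons. The beta2 and beta4 subunits, from Scn2b and Scn4b, bind alpha subunits through a disulfide bond, and beta3, from Scn3b, binds them without one. The beta4 subunit also supplies a tail that can block the open pore and give resurgent current.

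The study asks how the loss of 1 copy of Setd1a, which encodes a histone H3 lysine 4 methyltransferase, changes gene expression in mouse frontal cortex during development. RNA from the frontal cortex of 50 mice was sequenced after poly-A capture, with paired 150 bp reads in a single sequencing batch. There were 5 wild-type (WT) and 5 heterozygous (Het) mice at each of 5 ages, E14, E18, P7, P35 and P70, giving 10 groups of 5 libraries with 1 mouse per library. Deposited totals ran from 35507165 to 43907318 counts per library. Het mice carried 1 copy of the Setd1a tm1d loss-of-function allele, made by a knockout-first design. WT mice were their counterparts without it, from crosses of heterozygous males with wild-type females. The labels give the strain of all mice as C57BL/6NTac, whereas the methods of the study describe a mixed C57BL/6NTac and C57BL/6J background and male animals. The methods also place the embryonic samples at 0.5 days after the labelled E14 and E18. They describe the dissected tissue as frontal brain regions in embryos and as frontal cortex after birth. Changes from E18 to P7 and from E14 to P70 cross this difference, and its part in them was not tested.

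Levels within 1 gene are given as CPM, counts relative to library size after scaling by the trimmed mean of M values (TMM). Levels compared between genes are given as RPKM, which is CPM divided by the kilobases of a gene's merged exons. A gene is called when its edgeR p, adjusted by Benjamini-Hochberg over all tested genes, is under 0.05. Fold changes are log2 values, Het over WT or later over earlier age. In bulk tissue, fewer cells of a type and less RNA per cell cannot be told apart.

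Setd1a itself was counted over all exons, so its counts do not check the deletion. The study cites earlier work that found less Setd1a protein in the cortex of Het mice. At E14 the WT libraries had 129, 129.8, 136, 119 and 119 CPM of Setd1a and the Het libraries 150.2, 136, 127.87, 139.7 and 130.1 CPM. At E18 the values were 93.4, 95.6, 94.6, 85.4 and 100.02 CPM in WT and 104, 117, 96.9, 104 and 113 CPM in Het. The ranges of the genotypes overlapped at both embryonic ages. At P7 they did not overlap, with 72.5, 76.2, 70.2, 70.7 and 71.3 CPM in WT and 81.9, 78.3, 76.4, 83.5 and 83.7 CPM in Het. At P35 the WT libraries had 91.7, 82.4, 81.7, 84.6 and 85.2 CPM and the Het libraries 91.9, 88.2, 88.3, 89.4 and 91.6 CPM, and at P70 they had 84.4, 88.7, 84.8, 81.6 and 92.03 CPM and 81.9, 86, 81.5, 76.6 and 97.8 CPM. Across ages Setd1a was higher in Het mice, at 0.10 with an adjusted p of 0.00679. It was called at no single age, where its adjusted p ran from 0.115 at E18 to 1 at P35 and P70.

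A few libraries stood apart from their groups. WT replicate 5 at E14 had 60159 counts of Xist and 0 counts of the Y-linked genes Ddx3y, Eif2s3y, Kdm5d and Uty together. WT replicate 2 at E18 had 55644 counts of Xist and 11 of those Y-linked genes. In the other 48 libraries Xist never exceeded 27 counts, and the Y-linked genes had 4711 counts or more. WT replicate 5 at E14 and WT replicate 2 at E18 thus showed the sex-linked pattern of females, whereas the methods describe male animals. WT replicate 2 at P7 deviated most from its group over all tested genes, with a standard deviation (SD) of 0.55 in log2 CPM, compared with at most 0.483 in any other library. Its summed oligodendrocyte markers reached 1278 CPM and its choroid plexus markers 608 CPM, whereas the other 4 WT libraries at P7 had 122 to 174 and 1.19 to 1.89 CPM. Its excitatory neuron markers summed to 1066 CPM, compared with 1863 to 1956 CPM in those 4 libraries. Its astrocyte markers summed to 1358 CPM, compared with 770 to 889 CPM. Calls of members that rest on these 3 libraries are given with and without them. Mean levels, the order of the members, shares and summed levels use all libraries. Het replicate 2 at E14 also had summed endothelial markers of 346 CPM, compared with 68.6 to 121 CPM in the other Het libraries at E14. Its SD of 0.483 exceeded those of WT replicate 5 at E14 (0.423) and WT replicate 2 at E18 (0.328). It is not among the 3 libraries, which are all WT.

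The labelled tissue was checked against markers of its cell types. The 5 excitatory neuron markers summed to 869 to 1297 CPM in WT libraries at E14 and to 4707 to 5733 CPM at P70, though only Camk2a and Slc17a7 rose between these ages and the other 3 fell. The 5 progenitor markers summed to 686 to 965 CPM at E14 and to 62.5 to 86.6 CPM at P70. All 9 striatal projection neuron markers were also present, and their sum varied widely among adult libraries, from 723 to 1788 CPM at P35 and from 502 to 2084 CPM at P70.

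The alpha subunit genes Scn1a, Scn2a and Scn3a lie together on chromosome 2 of GRCm38. Scn3a spans 65457118 to 65567627 on the minus strand, Scn2a 65620771 to 65767447 on the plus strand and Scn1a 66270778 to 66440840 on the minus strand. Scn8a lies apart from them on chromosome 15, from 100869858 to 101045938. The 3 beta subunit genes share chromosome 9, with Scn3b at 40269217 to 40291618, Scn2b at 45117782 to 45130070 and Scn4b at 45138395 to 45154152. Scn2b and Scn4b are neighbours on the plus strand. No exon base of any of the 7 genes overlaps an exon of another annotated gene. The merged exons run from 4656 bases in Scn2b to 15766 bases in Scn8a.

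Their coding sequences are related, which bears on how reads can be assigned. The longest coding sequences of the alpha subunits were 72.1% to 82.1% identical in pairwise alignment, highest for Scn1a and Scn2a, which share an unbroken run of 188 bases. The beta subunits were 50.3% to 51.9% identical to each other. Of all windows of 100 bases in the longest coding transcript, 1.51% of those in Scn2a, 1.17% of those in Scn1a and 1.01% of those in Scn3a occurred in another member, and 0 of those in the other 4 members did.

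Promoter sequences are shown for genes that rose together with age, to let their base composition be compared. The RefSeq promoter table (build GRCm38.p6) matched 5 of the 7 members with 7 entries. Scn3a and Scn3b had no entry. In the 250 bases before the start, Scn8a held 30 CG pairs at 68.0% GC at its first start and 9 at 53.2% GC at its second. Scn4b held 23 CG pairs at 66.0% GC. Scn1a held 4 CG pairs at 46.8% GC and Scn2b 1 at 38.4% GC. Scn2a held 2 at 29.6% GC at its first start and 9 at 53.2% GC at its second start. The first bases after the first Scn2a start were found in no annotated transcript of the gene, unlike those of the other entries. The median over 32851 promoters was 6 CG pairs and 52.4% GC. The bases that lie outside annotated exons are printed here from 5′ to 3′ with each CG pair in capitals. For Scn2a only the second start is printed, and for Scn8a only the first.
Scn1a (chr2:66440841-66441087, minus strand): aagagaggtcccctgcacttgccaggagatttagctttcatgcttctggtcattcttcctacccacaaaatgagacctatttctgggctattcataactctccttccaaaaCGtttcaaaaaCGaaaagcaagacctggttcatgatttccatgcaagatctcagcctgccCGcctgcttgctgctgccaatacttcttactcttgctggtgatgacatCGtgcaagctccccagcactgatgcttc
Scn8a (chr15:100870395-100870644, plus strand): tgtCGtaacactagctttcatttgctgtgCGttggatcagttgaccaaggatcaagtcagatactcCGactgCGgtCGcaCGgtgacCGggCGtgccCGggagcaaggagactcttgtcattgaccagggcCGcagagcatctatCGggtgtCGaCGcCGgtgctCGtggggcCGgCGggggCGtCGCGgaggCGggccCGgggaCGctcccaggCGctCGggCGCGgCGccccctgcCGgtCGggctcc
Scn2a (chr2:65668436-65668685, plus strand): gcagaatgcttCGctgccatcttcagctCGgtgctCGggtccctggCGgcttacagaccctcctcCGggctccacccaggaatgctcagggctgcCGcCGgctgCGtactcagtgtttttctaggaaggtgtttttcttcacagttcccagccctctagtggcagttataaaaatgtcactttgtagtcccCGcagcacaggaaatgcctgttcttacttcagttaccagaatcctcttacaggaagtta
Scn2b (chr9:45117626-45117781, plus strand): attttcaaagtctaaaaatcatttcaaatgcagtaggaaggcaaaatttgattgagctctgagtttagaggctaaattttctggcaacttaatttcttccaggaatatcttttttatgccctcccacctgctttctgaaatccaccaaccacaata
Scn4b is not printed, since 229 of its 250 bases lie in annotated exons. Both strands of the 250 bases were searched for 5 motifs, which were TATAAA (in 12.4% of all promoters of this length), TTCAGCACC (0.301%), GGACAG (18.7%), TGACGTCA (1.55%) and CCGCCC (32.7%). Scn1a is shown without 3 bases and Scn2b without 94 bases that lie in annotated exons. The Scn2a entry shown holds TATAAA, and no other motif was found in any member entry. A window without a motif lacks those letters, and nothing follows from it about a factor.

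Among the alpha subunits, Scn3a had the highest level at E14, when the WT libraries had 10.02, 9.66, 9.35, 8.46 and 6.32 RPKM. At P70 it had 4.67, 4.88, 4.01, 4.29 and 4.48 RPKM in WT libraries. The highest P70 library thus lay below the lowest E14 library, and Scn3a fell by 0.97 on the log2 scale (SE 0.079, adjusted p = 2.69e-15). The course was not a steady decline. Scn3a first rose from E14 to E18 (0.32, adjusted p = 0.000371), then fell to P7 (-0.28, adjusted p = 0.00157) and fell again to P35 (-0.86, adjusted p = 3.74e-13).

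Scn2a, whose product serves immature axons, had the largest rise of the alpha subunits from E14 to E18. WT libraries at E14 had 2.77, 4.17, 2.79, 3.07 and 1.71 RPKM, those at E18 8.76, 9.34, 8.96, 9.80 and 8.46 RPKM and those at P7 25.4, 17.9, 27.02, 26.2 and 23.3 RPKM. None of these ages overlapped with the next. The rise was 1.64 from E14 to E18 (SE 0.13, adjusted p = 1.91e-14) and 1.402 from E18 to P7 (SE 0.13, adjusted p = 3.83e-13). From P7 to P35 the value was 0.27, with an adjusted p of 0.0508 by edgeR, 0.0425 by DESeq2 and 0.0442 by limma-voom. Leaving out a single library made this call in 11 of 50 cases, with adjusted p from 0.0188 to 0.0499 and values from 0.27 to 0.33. Without WT replicate 2 at P7, which stood apart, the value was lowest, at 0.18 (adjusted p = 0.197), and without all 3 such libraries it was 0.18 (adjusted p = 0.119). The libraries of the 11 cases were WT replicates 2 and 5 and Het replicates 2, 3 and 5 at E14, WT replicates 1, 3 and 4 at P7, WT replicate 4 and Het replicate 4 at P35, and WT replicate 4 at P70. At P35 Scn2a had 28.9 ± 2.90 RPKM (SD, n = 5) and at P70 26.9 ± 2.40 RPKM.

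Scn8a, the gene of the mature nodal channel, rose later than Scn2a. Its WT mean was 5.98 ± 1.13 RPKM (SD, n = 5) in the E14 group and 6.31 ± 0.762 RPKM in the E18 group. It was 12.2 ± 1.18 RPKM by P7 and 27.3 ± 1.66 RPKM by P35. From E14 to E18 the value was 0.08 (adjusted p = 0.446), and without WT replicate 5 at E14 it was -0.03. Scn8a then rose by 0.96 to P7 (adjusted p = 1.03e-12) and by 1.16 to P35 (adjusted p = 2.03e-15). Scn1a, the gene of the channel prominent in interneurons, had its largest step at the same time. WT libraries had 5.23, 5.56, 5.46, 5.59 and 5.80 RPKM at P7 and 16.8, 15.9, 15.6, 13.8 and 15 RPKM at P35, with no overlap. That rise was 1.48 (SE 0.089, adjusted p = 4.26e-19), after a rise of 0.34 from E14 to E18 and of 1.23 from E18 to P7.

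Of the beta subunits, Scn2b and Scn4b rose more from E14 to P70 than any alpha subunit. Scn3b, which encodes beta3, was the most abundant member at E14, with 21.2, 24.95, 17.9, 17.2 and 11.5 RPKM in WT libraries. It rose to 34.8, 34.98, 34.1, 39.9 and 35.6 RPKM at E18 (0.95, adjusted p = 3.74e-10). From P7, where the mean was 38.7 ± 3.55 RPKM (SD, n = 5), it fell to 21.3 ± 0.848 RPKM at P35 (-0.86, adjusted p = 2.61e-09). Scn3b was thus highest at E18 and P7, and its change from E14 to P70 was not called, at 0.17 with an adjusted p of 0.139. Without WT replicate 2 at E14, its highest library there, the value was 0.30 with an adjusted p of 0.00869.

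Scn2b, the gene of the disulfide-linked beta2 subunit, had 3.13, 3.37, 2.44, 1.99 and 1.95 RPKM in WT libraries at E14. At P7 it had 11.4, 12.2, 11.3, 11.9 and 9.93 RPKM and at P35 71.5, 78.1, 70.8, 64.4 and 68.7 RPKM. Every P7 library lay above every E14 library and every P35 library above every P7 library. Scn2b rose at each of the first 3 steps, by 0.48, 1.66 and 2.64 (adjusted p = 3.43e-05, 2.56e-19 and 7.31e-27). From E14 to P70 its rise of 4.85 exceeded the absolute change of 96.4% of tested genes.

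Scn4b, the gene of the beta4 subunit, was near the limit of detection before birth. The WT libraries had 2, 12, 21, 26 and 36 counts at E14 and 43, 20, 63, 54 and 27 counts at E18. At P7 the WT libraries had 1.23, 5.35, 2.68, 9.54 and 1.46 CPM, and at P35 they had 238, 318, 209, 196.11 and 253 CPM. The P7 libraries differed among themselves by over 7-fold, and all lay far below the P35 libraries. The rise from P7 to P35 was 5.90 (SE 0.47, adjusted p = 4.54e-15), and that from E14 to P70 was 9.08, more than the absolute change of 99.9% of tested genes. The rise of 1.96 from E18 to P7 (SE 0.56, adjusted p = 0.00199) was not called by limma-voom (1.65, adjusted p = 0.0958).

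**Figure D1:**
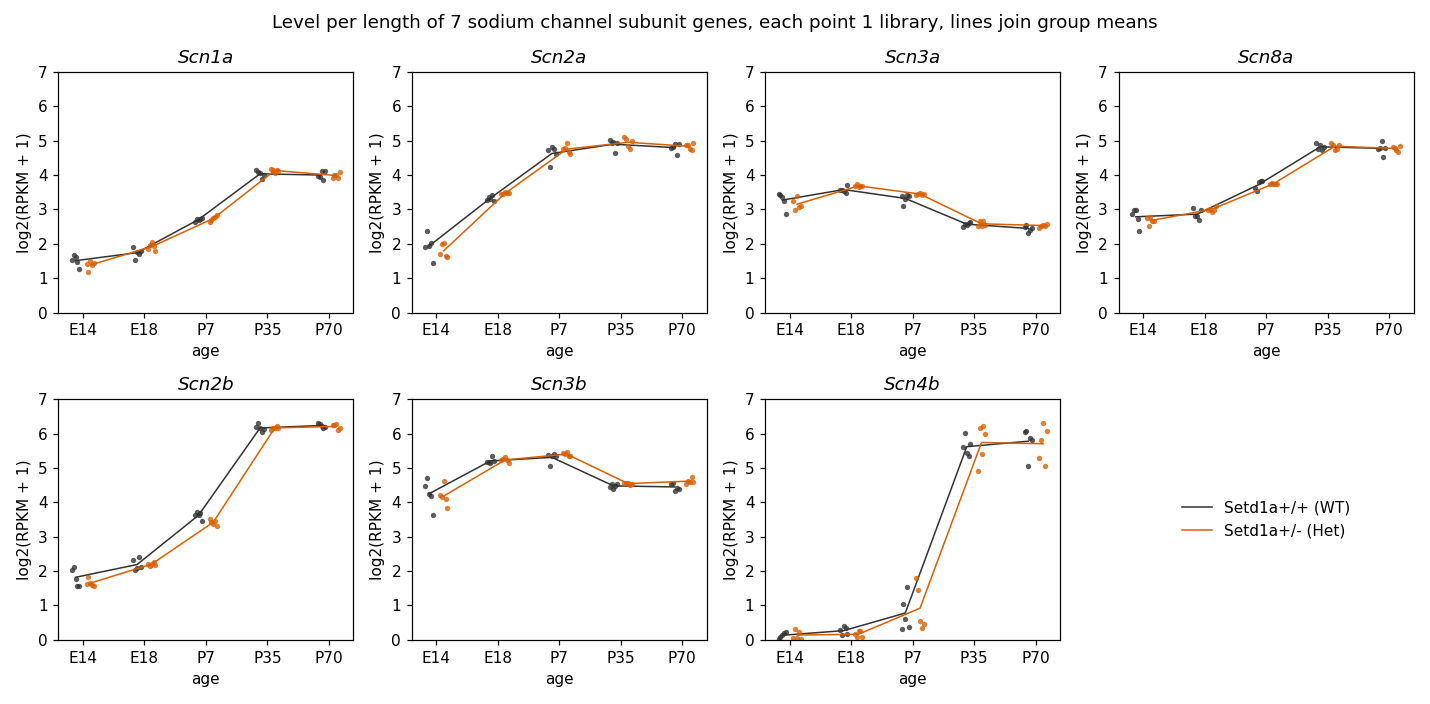
Level per length of each of the 7 genes, as log2 of RPKM plus 1 on the vertical axis, at 5 ages on the horizontal axis, with 1 point per library and lines joining the group means of WT and Het mice. Scn2b and Scn4b climb steeply to P35, Scn3a declines after E18, and Scn3b is highest at E18 and P7.

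Counted together, the 7 members changed most before P35. From E14 to E18 in WT mice, 5 of 7 rose, beside 31.8% of all tested genes, and 0 fell by edgeR, beside 34.1%. The members not called were Scn8a and Scn4b. DESeq2 and limma-voom also called 5 members at this step. An unadjusted edgeR p under 0.05 was found for 5 members, beside 11189 of 16330 tested genes. From E18 to P7, 5 rose, beside 33.9% of tested genes, and 1, Scn3a, fell, beside 33.4%. From P7 to P35, 4 rose, beside 32.6%, and 2, Scn3a and Scn3b, fell, beside 34.3%. From P35 to P70, 0 of 7 were called in either direction by edgeR, DESeq2 and limma-voom. There 0 had an unadjusted edgeR p under 0.05, beside 1849 of 16330 tested genes. At that step 0.533% of all tested genes rose and 0.527% fell. DESeq2 and limma-voom called 6 and 5 members from E18 to P7 and 7 each from P7 to P35. Over the whole span from E14 to P70, 5 members rose, beside 42.8% of tested genes, and 1 fell, beside 42.9%. The median member change over that span was 3.01, and the median of all tested genes was -0.0019.

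Scaling by library size alone moved the median of all tested genes by -0.11 from E14 to P70 in WT and by -0.15 in Het. Every called change of a member with age kept its sign with TMM, with DESeq2 size factors and with library size alone, and exceeded that shift. Each of these called changes had the same sign in Het mice. In Het mice Scn8a rose from E14 to E18 (0.38, adjusted p = 0.000227) and Scn3b from E14 to P70 (0.43, adjusted p = 0.000333), changes not called in WT. Their interactions of age with genotype had adjusted p of 0.953 and 0.996. The largest value of a member from P35 to P70 in WT was that of Scn4b, 0.18, with a 95% interval of -0.55 to 0.91. For the alpha subunits the intervals at that step lay within -0.36 and 0.15.

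These courses reordered the family. In WT libraries at E14 the mean levels descended in the order Scn3b, Scn3a, Scn8a, Scn2a, Scn2b, Scn1a and Scn4b. Scn3b and Scn4b did not overlap with their neighbours, while Scn3a overlapped with Scn8a, Scn8a with Scn2a, Scn2a with Scn2b and Scn2b with Scn1a. Without WT replicate 5, the library with Xist counts, Scn3a had 8.46 RPKM or more, above Scn8a at 5.65 to 6.93 RPKM. Scn8a then also lay above Scn2a, which had 4.17 RPKM or less. At P7 the order was Scn3b, Scn2a, Scn8a, Scn2b, Scn3a, Scn1a and Scn4b, and only Scn8a and Scn2b overlapped. At P70 it was Scn2b, Scn4b, Scn2a, Scn8a, Scn3b, Scn1a and Scn3a. There Scn2a overlapped with Scn8a and Scn8a with Scn3b, and the other neighbours were separate. The order by RPKM was the same in all 10 groups when levels were taken as TPM, and in 7 of 10 when the longest coding transcript gave the length.

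Among the 4 alpha subunits, the share of Scn3a in their summed RPKM went from 45.1% (SD 2.18, n = 5) in WT mice at E14 to 6.16% (SD 0.741) at P70. Scn2a went from 14.7% at E14 to 47% at P7, when it was the leading alpha subunit, and to 36.9% at P70. Scn8a had 30.6% at E14, 21.9% at E18 and 36.3% at P70, and Scn1a had 9.61% and 20.6% at the ends of the span. The summed level of the alpha subunits was 19.5 ± 3.59 RPKM (SD, n = 5) at E14 and 72.9 ± 6.44 RPKM at P70.

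Among the 3 beta subunits, Scn3b held 87.2% of the summed RPKM in WT mice at E14 (SD 1.71, n = 5), 76.02% at P7 and 13.9% at P70. Scn2b held 12.3% at E14 and 49.8% at P70. Scn4b went from 0.557% at E14 to 36.3% at P70, with an SD of 5.83 at P70. Het shares followed the same course, with 45.4% for Scn3a and 88.3% for Scn3b at E14, and 6.52% and 15.96% at P70. These shares carry no test.

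**Figure D2:**
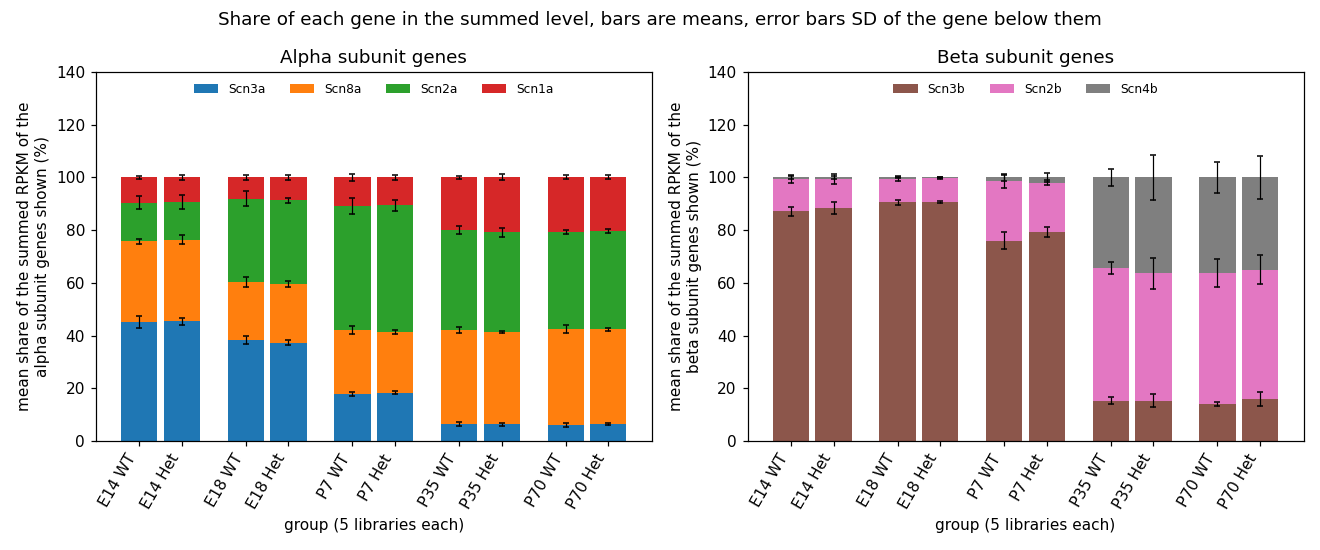
Mean share, in percent, of each gene in the summed RPKM of the alpha subunit genes (left) and the beta subunit genes (right), for the 10 groups of 5 libraries on the horizontal axis, with error bars of 1 SD for each gene's share. Scn3a shrinks from 45.1% to 6.16% of the alpha sum and Scn3b from 87.2% to 13.9% of the beta sum in WT mice between E14 and P70.

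Other genes followed each course closely, named as the 3 tested genes with the highest Pearson r of log2 CPM over the 50 libraries. These r span the 5 ages and are given as a description. Closest to Scn1a were Ttll7, Tppp and Cnnm1 (r = 0.994 for each), and closest to Scn8a were Cds2, Pcnx2 and Ttll7 (r = 0.993 for each). Ttll7 is thus near both of these genes. Closest to Scn2a were 5730409E04Rik, Rgs7 and Ncald (0.995, 0.994 and 0.994), and closest to Scn3a were D430019H16Rik, Zfp704 and Camsap3 (0.984, 0.979 and 0.976). For the beta subunits these were Kcnab2, Got1 and Fbxl16 for Scn2b (0.997, 0.996 and 0.996). They were Cd200, Stmn4 and Mtss1l for Scn3b (0.976, 0.968 and 0.967) and B3gnt2, S1pr1 and Itm2c for Scn4b (0.984, 0.981 and 0.981).

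Scn4b varied more than any other member among libraries of 1 group in adult mice. At P70 the WT libraries had 64.97, 66.6, 32.5, 57.4 and 55.7 RPKM and the Het libraries 38.1, 55.1, 77.8, 31.9 and 66.3 RPKM. At P35 the WT libraries had 47.8, 63.9, 41.9, 39.4 and 50.9 RPKM and the Het libraries 29.2, 69.9, 41.5, 73.7 and 62.98 RPKM. At both ages the lowest and the highest library were Het, and the ranges of the genotypes overlapped. Scn4b is known for high levels in striatal projection neurons, so it was set beside the summed CPM of their 9 markers over the 10 libraries of each age. In the same order of replicates, these markers summed to 1655, 1774, 502, 1397 and 1223 CPM in WT and 842, 1374, 2084, 817 and 1602 CPM in Het at P70. At P35 they summed to 1116, 1600.3, 1031, 1047 and 1219.9 CPM in WT and 723, 1683, 1061, 1788 and 1544 CPM in Het. The libraries low or high in these markers were also low or high in Scn4b. Pearson r was 0.994 at P35 (permutation p = 1e-05, the smallest these permutations can give, adjusted over the 5 ages to 5e-05) and 0.978 at P70 (permutation p = 2e-05, adjusted to 5e-05). Spearman rho was 0.964 at both ages (adjusted permutation p = 1e-04 at each).

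At P7 the markers summed to 197, 176, 248, 437 and 215 CPM in WT and 632, 423, 256, 203 and 235 CPM in Het. There r was 0.916 (permutation p = 0.00223, adjusted to 0.00372) and rho was 0.733 (permutation p = 0.0200, adjusted permutation p = 0.0334). Without the 2 libraries farthest from the median marker sum, r was 0.749 at P7, 0.989 at P35 and 0.972 at P70. Before birth r was -0.360 at E14 (permutation p = 0.311, adjusted to 0.389) and 0.132 at E18 (permutation p = 0.744, adjusted to 0.744). There Scn4b lay between 0.0587 and 1.58 CPM. The marker sum was largest from Ppp1r1b in adults, at a mean of 372 CPM at P35, and no marker was at 0 in any library, the lowest value being 1.70 CPM of Penk at E14. Over both genotypes together, r of the deviations from the genotype means was 0.994 at P35, 0.982 at P70 and 0.927 at P7. The part of striatal tissue in the rise of Scn4b with age was not tested.

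**Figure D3:**
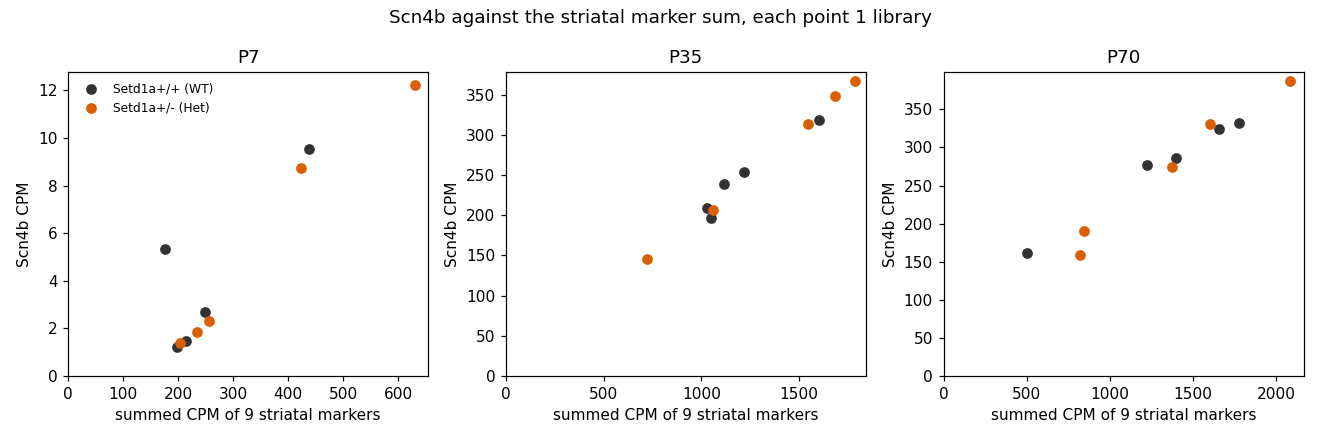
Scn4b in CPM (vertical axis) against the summed CPM of 9 striatal projection neuron markers (horizontal axis) at P7, P35 and P70, with 1 point per library of WT or Het mice. At P35 and P70 the points of both genotypes follow 1 line, with r of 0.994 and 0.978.

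Loss of 1 copy of Setd1a was then compared across the members. With age as a covariate, 0 of 7 members were called across ages by edgeR, beside 4.43% of all tested genes (723 of 16330). DESeq2 and limma-voom also called 0, and 1 member had an unadjusted edgeR p under 0.05, beside 2360 of 16330 tested genes. That member was Scn2b, at -0.10 with a 95% interval of -0.18 to -0.01 and an adjusted p of 0.275. For Scn1a, Scn2a, Scn3a, Scn8a and Scn3b the intervals lay within -0.08 and 0.15. Scn4b had a much wider interval, from -0.34 to 0.48, and its value of 0.07 became -0.15 (adjusted p = 0.747) with the striatal marker sum as a covariate. The median member value was 0.03 and that of all tested genes 0.0012.

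At single ages 0 of 7 members were called by edgeR at E14 (beside 0.129% of all tested genes), E18 (0.11%), P7 (0.735%), P35 (0%) and P70 (0.233%). DESeq2 and limma-voom called 0 members at each age as well, and at P35 they called 11 and 0 of all tested genes. An unadjusted edgeR p under 0.05 was found for 2 members at E14, 1 at E18, 1 at P7 and 0 at P35 and P70, beside 1895, 1857, 1447, 550 and 1070 of 16330 tested genes. The test of an interaction between age and genotype called 0 of 7 members by edgeR, beside 0% of all tested genes, and 0 by DESeq2 and limma-voom, which called 21 and 0 of all tested genes. The smallest unadjusted interaction p was that of Scn1a, 0.0195, with an adjusted p of 0.588, and 1 member was under 0.05.

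Scn1a is the member behind that value. At E14 its WT libraries had 20.9, 24.5, 23.3, 19.5 and 15.7 CPM and its Het libraries 18.7, 13.9, 20.7, 17.7 and 19.1 CPM. At E18 they had 30.9, 21.1, 26.8, 25.5 and 27.2 CPM and 29.2, 32.7, 35, 31.5 and 27.1 CPM. Het libraries lay toward the lower end at E14 and toward the upper end at E18, and the ranges overlapped at both ages. The fold changes were -0.20 (adjusted p = 0.346) and 0.24 (adjusted p = 0.269). WT replicate 2 at E18, the other library with Xist counts, was the lowest there at 21.1 CPM. Without the 3 libraries that stood apart, the E18 value was 0.17 (adjusted p = 0.286).

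Scn2b at P7 had 53.2, 56.9, 52.5, 55.4 and 46.3 CPM in WT and 49.01, 45.7, 43.6, 46.8 and 41.6 CPM in Het. All but 2 Het libraries lay below the lowest WT library. The value of -0.22 had an adjusted p of 0.400, and without the 3 libraries that stood apart it was -0.19 (adjusted p = 0.926). The 5 oligodendrocyte markers at P7, most abundant in Mbp and none at 0, summed to 1278 CPM in WT replicate 2 and 117 to 174 CPM in the other 9 libraries. WT replicate 2 also had the most Scn2b, and the part of these markers in the value was not tested.

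The ranges of WT and Het did not overlap for 2 of 35 combinations of member and age. Over all 16330 tested genes the share without overlap was 0.784% (E14), 2.22% (E18) and 2.23% (P7), and in adults 2.25% (P35) and 1.79% (P70). Scn2a at E18 had 113, 120.2, 115, 126 and 109 CPM in WT and 127, 127, 134, 130.59 and 130.0 CPM in Het, so that all 5 Het libraries were above the highest WT library. Its value was 0.16 with an adjusted p of 0.682. At E18 the choroid plexus markers summed to 2.03 to 227 CPM in WT and to 0.897 to 2.77 CPM in Het. The median of the endothelial markers by genotype was -0.60 there (unadjusted p under 0.05 for 2 of 3). Of these 2 lists 0 markers were called with all libraries, and 2 of 3 choroid plexus markers were lower without the 3 libraries that stood apart. The part of these markers in the E18 values was not tested. Scn3a at P7 had 122, 96.4, 112, 123 and 121 CPM in WT and 123, 127, 129.9, 123 and 127.59 CPM in Het, again all 5 above, with the lowest Het library at 123.0 CPM and the highest WT library at 122.9 CPM. Its value was 0.14 with an adjusted p of 0.660, and 0.08 without the 3 libraries that stood apart. Neither was called. In adults the values ran from -0.04 to 0.19 at P35 and P70, and the intervals of Scn4b from -0.77 to 0.91. For Scn3b at P70, 4 of 5 Het libraries lay above the highest WT library, with overlapping ranges and a value of 0.18 (adjusted p = 0.920).

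**Figure D4:**
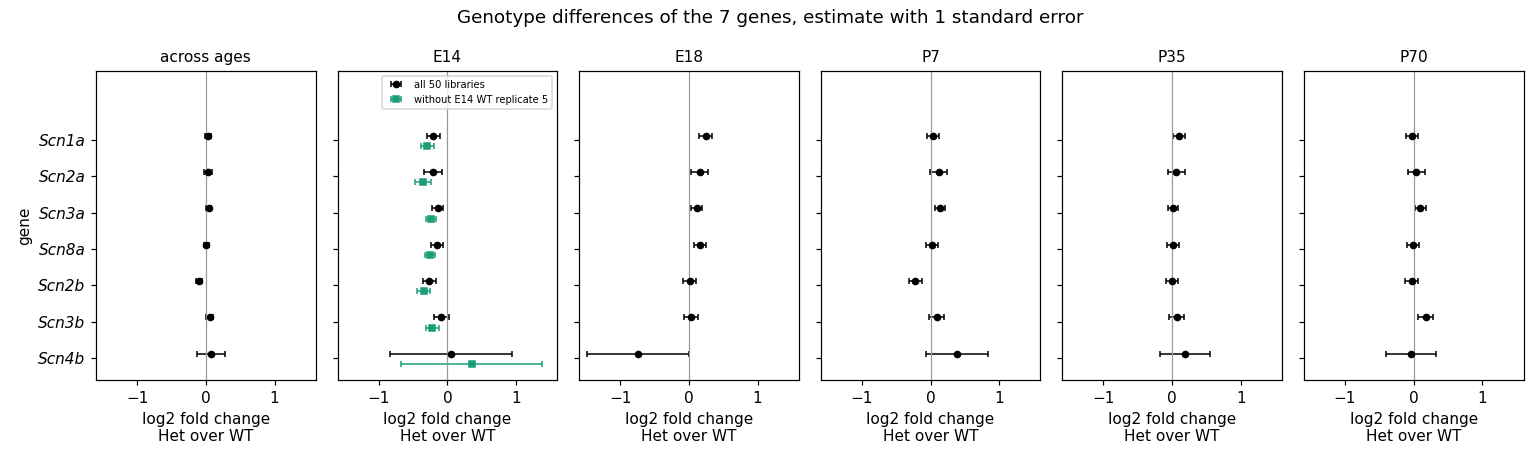
Log2 fold change of Het over WT on the horizontal axis for each of the 7 genes, across ages and at each age, with error bars of 1 standard error from edgeR. Black circles use all 50 libraries, and green squares at E14 leave out WT replicate 5, which moves Scn1a from -0.20 to -0.29 and Scn2b from -0.26 to -0.35.

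At E14 the calls depended on which libraries were kept. WT replicate 5, the library with Xist counts, was the lowest of its group for 6 of the 7 members and above its group for Scn4b. Scn3a had 127, 123, 119, 108 and 80.4 CPM in WT and 108, 87.7, 120.3, 93.6 and 95.3 CPM in Het. Scn8a had 99.1, 109, 108, 89.1 and 65.8 CPM in WT and 91.4, 74.03, 91.6, 84.7 and 83.5 CPM in Het. In both genes the last WT value, replicate 5, lay below all Het libraries and the other WT libraries lay in the upper part of the joint range. Scn2a had 35.6, 53.7, 35.96, 39.5 and 21.98 CPM in WT and 29.02, 38.1, 39.9, 27.6 and 26.4 CPM in Het, and Scn2b 14.6, 15.7, 11.4, 9.26 and 9.10 CPM in WT and 9.62, 11.8, 9.96, 9.30 and 9.21 CPM in Het. Replicate 5 was again the lowest of the 10 libraries for both genes.

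Without that library, 4 of 7 members were lower in Het at E14 by edgeR, beside 2.23% of 16409 tested genes, and 0 were higher, beside 2.32%. The values were -0.29 for Scn1a (adjusted p = 0.0468), -0.24 for Scn3a (adjusted p = 0.0347), -0.25 for Scn8a (adjusted p = 0.0496) and -0.35 for Scn2b (adjusted p = 0.0360). Scn2a had a value of -0.36 (adjusted p = 0.0563) and Scn3b of -0.22 (adjusted p = 0.143). Of the 7 members, 6 had an unadjusted p under 0.05, beside 3559 of 16409 tested genes. The median member value was -0.25, compared with -0.03 over all tested genes. With all 50 libraries the values of the same 4 genes were -0.20, -0.14, -0.15 and -0.26, and none was called.

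Without the 3 libraries that stood apart, 5 of 7 members were lower in Het at E14, beside 3.97% of 16382 tested genes, and 0 were higher, beside 3.13%. These were the 4 named and Scn2a (-0.36, adjusted p = 0.0336). In the same fit 0 of 7 were called across ages, beside 0.745% higher and 3.48% lower, at E18, beside 0.537% and 0.635%, and at P7, beside 0% and 0.0549%. The unadjusted p was under 0.05 for 1 member in each of these 3 comparisons, beside 2326, 2527 and 760 of 16382 tested genes. When Het replicate 2, the library with high endothelial markers, was left out together with WT replicate 5, 1 member was called at E14, Scn2b (-0.42, adjusted p = 0.0454). In that fit Scn1a was at -0.21 (adjusted p = 0.217), Scn3a at -0.19 (adjusted p = 0.162), Scn8a at -0.21 (adjusted p = 0.204) and Scn2a at -0.43 (adjusted p = 0.0914). The number of all genes called at E14 was 54 in that fit. It was 21 with all libraries and 747 without WT replicate 5. Among the other E14 libraries it was 1, 5, 15 and 14 without WT replicates 1 to 4 and 429, 9, 391, 10 and 149 without Het replicates 1 to 5. Leaving out any single library other than WT replicate 5 called 0 members.

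**Figure D5:**
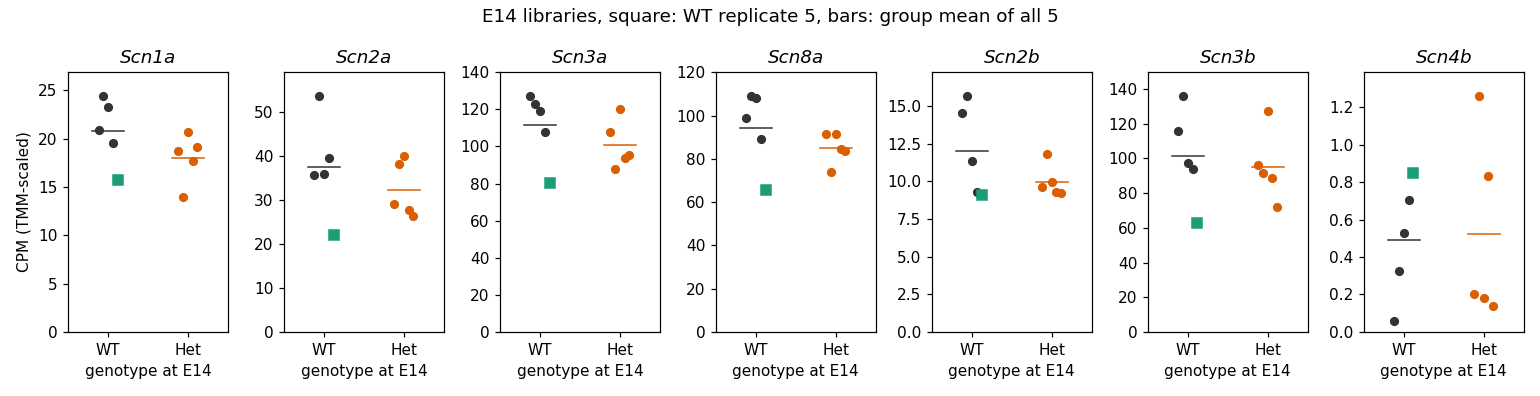
CPM of each of the 7 genes (vertical axes, from 0) in the 5 WT and 5 Het libraries at E14, with bars at the mean of each group and WT replicate 5 drawn as a green square. The square is the lowest WT point for 6 genes, with 80.4 CPM for Scn3a and 65.8 CPM for Scn8a.

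Markers differed at E14 as well. The 5 inhibitory neuron markers, most abundant in Gad2, summed to 509, 406, 355, 347 and 255 CPM in WT and 365, 240.5, 380.4, 333 and 338 CPM in Het, with Pvalb at 0 in some libraries. WT replicate 5 was the lowest of its group. The 2 erythroid markers, with Hbb-bs the more abundant and none at 0, summed to 273, 239.9, 236, 378 and 787 CPM in WT and 193.03, 589.6, 734, 672 and 677 CPM in Het, so that replicate 5 was the highest of all 10. Its 9 striatal markers summed to 139 CPM, compared with 188 to 255 CPM in the other WT libraries. Its excitatory neuron markers, at 1060 CPM, lay within the group's range of 869 to 1297 CPM. Without WT replicate 5, 1 of 5 astrocyte markers was higher in Het, Gja1 (1.15, adjusted p = 0.0463), and the median of the 5 was 0.07. Of 3 endothelial markers 1 was higher, Pecam1 (0.84, adjusted p = 0.0336), and all 3 had an unadjusted p under 0.05. The median was -0.27 for inhibitory neuron markers (unadjusted p under 0.05 for 2 of 5), -0.27 for striatal markers (0 of 9), -0.25 for oligodendrocyte markers (0 of 5), -0.15 for excitatory neuron markers (0 of 5) and 1.03 for erythroid markers (2 of 2). It was 0.52 for oligodendrocyte precursor markers (1 of 2), 0.43 for choroid plexus markers (0 of 3), 0.22 for microglial markers (1 of 5) and 0.17 for progenitor markers (0 of 5). Without the 3 libraries that stood apart, 3 of 3 endothelial markers, 1 of 5 astrocyte markers and 1 of 2 oligodendrocyte precursor markers were higher in Het at E14. The 3 endothelial markers, most abundant in Cldn5 and none at 0, summed to 72.6, 71.9, 75.9, 66.1 and 87.1 CPM in WT and 71.2, 346, 68.6, 121 and 69.1 CPM in Het, highest in Het replicate 2. Het replicate 2 was also the highest of all 10 in precursor markers (89.4 CPM), microglial markers (77.4 CPM) and astrocyte markers (303 CPM). The part of these markers and of sex-linked expression in the member values was not tested.

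The partners of the channels were compared in the same fits. Of 12 proteins of the axon initial segment and node, 8 rose and 1 fell between E14 and P70 in WT mice, when 42.8% of all tested genes rose and 42.9% fell. The largest changes were in Cntnap1, which encodes the paranodal protein Caspr (5.89), and Cntn1, which encodes its partner contactin (3.51). Ank3, the gene of ankyrin G, had a value of -0.10 (adjusted p = 0.306). Of 6 channel-binding proteins, 3 rose and 3 fell, shares near those of all tested genes, with Fgf12, an intracellular factor that binds the channel tail, rising most (3.40) and Fgf14 next (1.54). Of 6 transcription and RNA regulators, 3 rose and 3 fell, again near those shares. Rest, the repressor that binds near many neuronal genes including sodium channel genes, fell by 2.39, and Srrm4, a neural splicing factor, by 2.17.

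Of 8 other sodium channel genes, 7 were tested, 3 of which rose and 4 fell between E14 and P70, beside 42.8% and 42.9% of all tested genes. Scn7a rose by 6.88 but had only 0.646 ± 0.101 RPKM (SD, n = 5) at P70 in WT mice. Scn4a, the muscle gene, was not tested at a mean of 1.48 counts.

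By genotype across ages, 1 gene of these 4 lists was called, beside 4.43% of all tested genes. Fgf11, another channel-binding factor, was lower in Het (-0.16, SE 0.046, adjusted p = 0.0234), and its interaction with age had an adjusted p of 0.842. Without WT replicate 5 at E14, Fgf11 was lower there (-0.34, adjusted p = 0.0309), as were 4 of 12 genes of the initial segment and node list, beside 2.23% of all tested genes. Among these were Nrcam (-0.22), Cntn1 (-0.31) and Trim46 (-0.33). With all libraries 0 of the 12 were called at E14 by edgeR, and 3 had an unadjusted p under 0.05, beside 1895 of 16330 tested genes. Without the 3 libraries that stood apart, 6 of the 12 were lower at E14, beside 3.97% of all tested genes, among them Ank3 (-0.25) and Sptbn4 (-0.39). Celf4 of the regulators (-0.19) was lower as well, and Fgf11 across ages was at -0.19 (adjusted p = 0.00529). The other 3 lists had 0 genes called across ages by edgeR, and an unadjusted p under 0.05 in 1 of 7 other sodium channel genes, 0 of 12 initial segment and node proteins and 0 of 6 regulators. Of all cell type markers 0 were called across ages by edgeR, and 2, both of the choroid plexus, had an unadjusted p under 0.05. At P7, 3 of 5 oligodendrocyte markers, 1 of 5 inhibitory neuron markers and 1 of 3 choroid plexus markers were lower in Het. Of all tested genes 0.735% were called there in either direction. Without the 3 libraries that stood apart, 0 markers of these lists were called at P7.

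Cell type markers moved with age alongside the members. Between E14 and P70 in WT mice, 5 of 5 inhibitory neuron markers rose, led by Pvalb (11.30) and Sst (2.19), and so did 9 of 9 striatal markers, led by Penk (5.81) and Ppp1r1b (3.37). Among excitatory neuron markers Camk2a (5.84) and Slc17a7 (4.80) rose and 3 of 5 fell. All 5 oligodendrocyte markers rose, led by Mobp (10.92) and Mag (8.78), as did both precursor markers, Pdgfra (1.46) and Cspg4 (0.89). All 5 astrocyte markers rose, led by Gfap (7.54) and Aqp4 (6.39), as did all 5 microglial markers, led by Tmem119 (3.54) and P2ry12 (3.12). All 5 progenitor markers fell, led by Mki67 (-6.80) and Eomes (-6.37). Flt1 was the only endothelial marker of 3 to rise (2.22), beside Cldn5 (0.59, adjusted p = 0.0672). Of the choroid plexus markers Ttr (-7.06) and Folr1 (-3.45) fell and Kl rose, and both erythroid markers fell, Hba-a1 by 1.95 and Hbb-bs by 1.49. Their part in the member values was not tested.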

How the data were processed

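RNA from frontal cortex was sequenced in 50 libraries, 5 per genotype at each of 5 ages. The deposited table holds raw counts per gene, which the authors made from trimmed reads (Trimmomatic, FastQC) aligned to GRCm38 with STAR and counted with featureCounts 1.4.6-p2 over the exons of Ensembl annotation 102. Symbols, lengths and loci came from GENCODE vM21. Protein-coding genes were filtered with filterByExpr, scaled by TMM and fitted with the quasi-likelihood method of edgeR 4.0.16 in R 4.3.3, as age plus genotype across ages and as 10 groups for single ages, age steps and the interaction. All p values are two-sided, and those of edgeR and limma-voom are adjusted by Benjamini-Hochberg over all tested genes. Those of DESeq2 are adjusted by Benjamini-Hochberg after its own filtering, so over a set of genes that can be smaller. DESeq2 1.42.0, limma-voom 3.58.1, other scalings, filters and covariates (among them the RNA integrity number given with the study) and fits without libraries were run as alternatives. Correlations of Scn4b with striatal markers used two-sided permutation tests with 100000 resamples in Python 3.11.15 with scipy 1.17.1, as a family of 5 ages. Coding sequences were aligned with Biopython 1.88. The members and the lists of other genes and cell type markers were chosen with earlier results of these data known. Genes named from a list were those with the 2 largest absolute changes from E14 to P70 in WT, and those called by genotype across ages, though not every gene this rule names is given. The 3 tested genes with the highest Pearson r of log2 CPM were named for each member. Ank3, Celf4, Gja1, Kl, Nrcam, Pecam1, Scn4a, Sptbn4 and Trim46 were named after their values were seen.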

Additional observations from a re-analysis of the deposited data

Results flagged for a closer look

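In groups of 5 libraries, a library was set aside for a closer look when its gap to the nearest other library exceeded 0.71 of the group's whole range. This held for 4 of 70 groups of a member at an age in a genotype, and chance gives about 1 in 20 groups. Scn2a in WT replicate 4 at P35 had 307 CPM, below 380.0 to 402 CPM in the other 4. Scn2b in Het replicate 2 at E14, the library with high endothelial markers, had 11.8 CPM, above 9.21 to 9.96 CPM. Scn3b in WT replicate 4 at E18 had 218 CPM, above 186 to 194.4 CPM. Scn3b in WT replicate 2 at P7, the library with high oligodendrocyte and choroid plexus markers, had 177 CPM, below 216 to 226 CPM.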

How the results depend on the processing

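The 184 values were recomputed under the alternatives, giving 1575 further values. Counts of members called changed by over 1.5 times only at E14 by genotype, from 0 to 4 without E14 WT replicate 5 (0 to 4 over single libraries left out), to 5 without the 3 libraries that stood apart and to 1 without E14 WT replicate 5 and Het replicate 2 together, an alternative chosen after seeing the data. The 3 libraries that stood apart were also picked from counts, markers and deviations in these data. The replicate block, age by replicate number, changed no member call and gave 785 genes called across ages. Libraries of the same number were not taken as pairs, since only 7 of 25 pairs correlated best with their own number (r from -0.204 to 0.460).

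Single values changed sign in 44 cases, none of them called, and the cause was not tested. Without the 3 libraries that stood apart these were, by genotype, Scn2a (-0.0070) and Scn8a (-0.026) across ages, Scn2b at E18 (-0.042) and Scn8a at P7 (-0.023), and Scn8a from E14 to E18 in WT (-0.0077). Without the pair of E14 libraries they were Scn4b at E14 (-0.28), Scn2b at P35 (-0.00015) and Scn8a from E14 to E18 (-0.028). With library size alone they were Scn2b at E18 (-0.032) and P35 (-0.0047), Scn3b at E18 (-0.0085) and Scn8a at P7 (-0.0029). With the striatal covariate they were Scn4b across ages (-0.15) and at P7 (-0.18), Scn2b at E18 (-0.0081) and P35 (-0.0092) and Scn3a at P35 (-0.0021). With the RNA integrity number they were Scn2b (-0.035) and Scn3b (-0.062) at E18. Scn4b changed sign across ages with DESeq2 (-0.011) and at E14 with limma-voom (-0.10) and the replicate block (-0.0096). Scn2b did at E18 with the 10 CPM filter (-0.0014) and with all annotated genes (-0.0053), and at P35 with every protein-coding gene (-0.00053).

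Leaving out single libraries, values across ages ran from -0.0081 to 0.023 for Scn8a and from -0.041 to 0.16 for Scn4b. At E14 they ran from -0.22 to 0.042 for Scn3b and from -0.58 to 0.35 for Scn4b, and at E18 from -0.042 to 0.089 for Scn2b. At P7 they ran from -0.024 to 0.050 for Scn8a and from -0.19 to 0.97 for Scn4b. At P35 the ranges were -0.00079 to 0.11 (Scn2a), -0.0092 to 0.036 (Scn3a), -0.0052 to 0.049 (Scn8a) and -0.028 to 0.042 (Scn2b). At P70 they were -0.056 to 0.020 (Scn1a), -0.014 to 0.067 (Scn2a), -0.069 to 0.051 (Scn8a) and -0.21 to 0.10 (Scn4b). For WT mice, Scn8a from E14 to E18 ran from -0.026 to 0.14, and from P35 to P70 Scn1a ran from -0.072 to 0.0043, Scn8a from -0.10 to 0.020 and Scn3b from -0.063 to 0.0032.

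Of the other single values, 18 became called, among them Scn3b from E14 to P70 with the 10 CPM filter (0.27, adjusted p = 0.0165), and 1 was no longer called. Some shares moved by over 1 SD with the length of the longest coding transcript, and some counts of all genes called changed by over 1.5 times under other settings, 70 values together. Of the rest, 1249 single values and 190 values of the main comparisons kept their direction and side of the threshold or stayed within these limits.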
